A study of Mus musculus with 17 samples.

Results

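A set of 10 genes of pericellular proteolysis was followed here in cultured mouse retinal cells: the matrix metalloproteinase (MMP) genes Mmp2, Mmp3, Mmp10, Mmp13 and Mmp14, the genes of the tissue inhibitors of metalloproteinases Timp1, Timp2 and Timp3, and the plasminogen activator genes Plau and Plat. They were chosen by name, as 10 of the 18836 genes listed in any library. The cells were mouse neural retinal progenitor cells (mNRPCs), taken from neural retina of adult C57BL/6 mice and derived on Matrigel-coated dishes in a medium that held bFGF and CHIR99021. They were then grown in basic medium (BM) with N2 and B27 supplements, in BM with basic fibroblast growth factor (B, bFGF), in BM with CHIR99021 (C), an inhibitor of the kinase GSK-3, or in BM with both (BC), and RNA was taken on days 1, 3, 5 and 7. With 1 untreated day 0 library there were 17 libraries, 1 for each treatment and day, so no condition had a replicate, and the labels do not say whether the libraries came from separate cultures. For day 0 the study's results describe cells in BM, whereas its methods describe values before treatment. Matrigel is itself a basement membrane extract, which holds substrates of several of these proteases. That the dishes of the time course were coated with it is not stated.

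MMPs are zinc endopeptidases that are secreted or anchored in the membrane as inactive zymogens and cleave collagens, laminin and other matrix proteins. The TIMPs block their active site, and TIMP2 also bridges MMP14 and the MMP2 zymogen at the cell surface, where MMP14 activates MMP2. The plasminogen activators urokinase (Plau) and tissue plasminogen activator (Plat) turn plasminogen into plasmin, which cleaves fibrin and matrix and can activate several MMP zymogens. In the retina these enzymes are known for remodelling the inner limiting membrane, vessels and the interphotoreceptor matrix, and TIMP3 is a stable component of Bruch's membrane.

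Mmp13, Mmp3 and Mmp10 are neighbours on chromosome 9 (RefSeq annotation, GRCm38.p6), each on the plus strand: Mmp13 (collagenase 3) at 7272514 to 7283333, Mmp3 (stromelysin 1) at 7445822 to 7455975 and Mmp10 (stromelysin 2) at 7502342 to 7510242. A gap of 162488 bases separated Mmp13 from Mmp3 and one of 46366 bases separated Mmp3 from Mmp10. RefSeq promoter windows were at hand for 7 of the 10 genes. Mmp2, Plau and Plat had none. The 100 bases before the annotated start of these 3 neighbours are shown because they share a pair of sequence motifs and because the genes differed in level and timing. Capitals mark the AP-1 motif TGANTCA, which reads the same on both strands, and the TATA motif TATAAA, which was searched on both strands and found on the plus strand.
Mmp13, GRCm38.p6, chr9:7272414-7272513, plus strand: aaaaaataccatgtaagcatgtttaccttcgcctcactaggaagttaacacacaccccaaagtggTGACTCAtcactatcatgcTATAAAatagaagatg
Mmp3, GRCm38.p6, chr9:7445722-7445821, plus strand: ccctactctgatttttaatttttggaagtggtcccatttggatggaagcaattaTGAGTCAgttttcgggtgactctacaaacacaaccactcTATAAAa
Mmp10, GRCm38.p6, chr9:7502242-7502341, plus strand: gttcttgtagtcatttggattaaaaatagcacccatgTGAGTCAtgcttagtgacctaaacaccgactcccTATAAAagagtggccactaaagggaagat
The AP-1 motif began 35 bases before the start in Mmp13, 46 in Mmp3 and 63 in Mmp10, and the TATA motif followed it in each. Of all 32851 windows, 2.73% held TGANTCA, 5.56% held TATAAA and 0.234% held both in these 100 bases. Neither motif occurred in the 300-base windows of Mmp14, Timp1, Timp2 or Timp3, whereas TGANTCA occurred in 7.81% and TATAAA in 13.6% of all such windows. These matches describe the sequence and no binding was measured.

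The other 7 genes lie apart. Mmp2 (gelatinase A) is at 92827290 to 92853421 and Plat at 22757722 to 22782848 on chromosome 8. Plau is at 20836662 to 20843388 and Mmp14 (membrane type 1 MMP) at 54431598 to 54442456 on chromosome 14. Timp3 is at 86300412 to 86349505 on chromosome 10, Timp2 at 118301061 to 118355411 on chromosome 11 and Timp1 at 20870166 to 20874737 on chromosome X. Timp1 and Timp3 sit inside the synapsin genes Syn1 and Syn3 on the opposite strand. In the GENCODE annotation the exons of Timp3 and Syn3 overlap, so their reads could be confused, but Syn3 reached no more than 0.61 FPKM in any library and Syn1 no more than 2.27.

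Library totals ran from 17571973 to 19428744 expected counts. FPKM, the fragments of a gene scaled by its length and by the depth of the library, is the authors' unit and allows levels of different genes to be compared per length. Tests were run on the expected counts with edgeR's quasi-likelihood test on the 11272 genes that averaged 1 FPKM or more across the 16 libraries of days 1 to 7, with trimmed-mean (TMM) scaling and Benjamini-Hochberg adjustment at 0.05. Since there were no replicates, the spread came from departures from additive effects, and p-values measure only that. In FPKM the median gene was lower with bFGF, by 0.03 on the log2(FPKM + 1) scale on day 1 and by 0.46 and 0.50 in the pairs of day 7, a shift that TMM scaling removes. Fold changes below are therefore relative to the bulk of genes. Next to the ratio of FPKM values, decreases with bFGF tended to be smaller and increases larger, and some pointed the other way. Of the progenitor markers, Pax6, Sox2, Six3 and Nes were present in every library, while Rax stayed at or near 0 (at most 0.07 FPKM).

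The filter was passed by 8 genes, and Mmp3 and Mmp10, with means of 0.78 and 0.472 FPKM, did not. Over days 1 to 7, bFGF changed 7 of the 8, beside 68.4% of all genes tested. Timp1 and Plat were higher (34.6% of genes were higher) and Mmp13, Mmp14, Timp2, Timp3 and Plau were lower (33.9% of genes were lower). Mmp2 did not pass the test. The median fold change of the 8 was -0.56 on the log2 scale, and that of all genes -0.002. The share called among the 8 was thus near that of the genome, and what sets the genes apart from each other is the direction, size and timing described below. Mmp13 passed the filter through the libraries without bFGF alone, since with bFGF it stayed at or below 0.74 FPKM, so its calls and folds for bFGF are a description.

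Among the inhibitors the 3 TIMPs did not move together: with bFGF the soluble inhibitor Timp1 was higher while Timp3 and Timp2 were lower. Timp3, which binds to the matrix and also inhibits ADAM sheddases, stood at 104.8 FPKM on day 0. In BM it measured 159, 383, 444 and 326 FPKM on days 1, 3, 5 and 7, and in C 184, 645, 571 and 425 FPKM. With bFGF it measured 55.7, 109, 128 and 112 FPKM in B and 62.4, 153, 147 and 109 FPKM in BC. The highest library with bFGF (153 FPKM) thus lay under the lowest without it (159 FPKM). Timp3 was the single gene of the 8 whose FPKM ranges did not overlap, as was the case for 5.83% of genes tested. That narrow gap depends on the scaling: TMM factors were 0.816 in BC day 5 and 1.10 in BM day 1, and dividing by them makes the ranges overlap. Its fold change for bFGF was -1.49 ± 0.12 (SE, log2, 16 libraries), or 2.8-fold lower, with an adjusted p of 5.99e-06 in edgeR's quasi-likelihood test. The decrease was present by day 1 (-1.46 ± 0.15, adjusted p = 0.000392), the day on which 10.7% of genes were called. After TMM scaling it was deepest on day 3 (-1.86 ± 0.15) and -1.20 ± 0.15 on day 7. In FPKM it was not smaller on day 7 than on day 1. B was 2.86-fold under BM on day 1 and 2.92-fold on day 7, and BC was 2.95-fold and 3.90-fold under C. The size of the late effect thus depends on the scaling. A difference between days was not called (adjusted p = 0.0593 in edgeR's quasi-likelihood test). In a fit of all 18700 genes with no filter that difference was called (adjusted p = 0.0456), as it was for 48.6% of genes.

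Timp1, a secreted inhibitor that also binds the tetraspanin CD63, had its day 0 level at 124 FPKM. In BM it fell to 44.8, 26.9, 50.2 and 74.2 FPKM on days 1, 3, 5 and 7, and in C it was 44.3, 27.0, 51.5 and 64.8 FPKM. In B it was 88.4, 66.2, 139 and 199 FPKM and in BC 63.7, 53.6, 98.7 and 163 FPKM. All 8 pairs of libraries that differ in bFGF alone were higher with it, by 1.44-fold to 2.78-fold in FPKM, but the ranges overlapped because both arms dipped on day 3 and then climbed. The fold change was 1.42 ± 0.14 (SE, log2), 2.67-fold, with an adjusted p of 2.4e-05. After TMM scaling it grew from 0.84 ± 0.14 on day 1 to 1.92 ± 0.14 on day 7. That growth was itself called, as a difference of 1.08 between day 7 and day 1 (edgeR's quasi-likelihood test of all days, adjusted p = 0.00143). In FPKM the growth was smaller: B was 1.97-fold over BM on day 1, 2.78-fold on day 5 and 2.68-fold on day 7. BC was 1.44-fold over C on day 1 and 2.51-fold on day 7. The size of the growth thus depends on the scaling. A difference between days was called for 76.3% of all genes.

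Timp2, the inhibitor that serves MMP2 activation, was 83.2 FPKM on day 0, then 133, 247, 379 and 372 FPKM in BM and 116, 286, 443 and 444 FPKM in C. With bFGF it was 89.2, 120.1, 176 and 200.5 FPKM in B and 70.9, 151, 187 and 209 FPKM in BC. It was higher on day 7 than on day 1 in each treatment, and every library with bFGF was below its partner without it. The fold change for bFGF was -0.65 ± 0.10 (SE, log2), 1.57-fold lower, with an adjusted p of 0.000309.

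**Figure D1:**
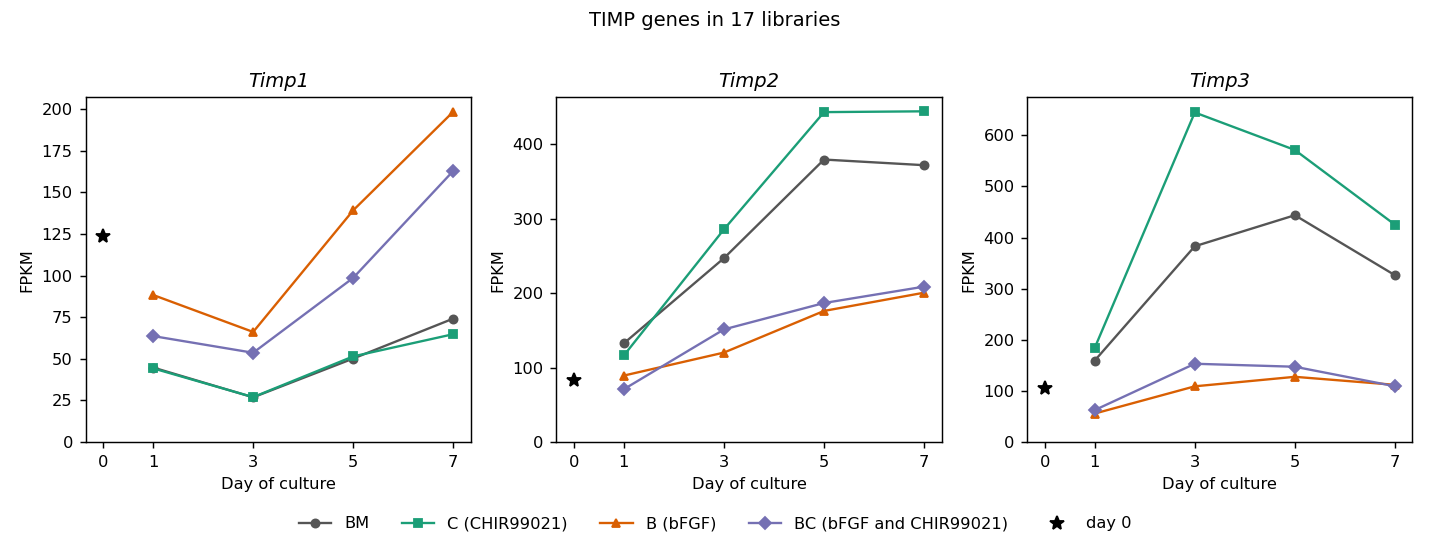
FPKM (vertical axis, from 0, scaled per panel) of Timp1, Timp2 and Timp3 by day of culture (horizontal axis), 1 point per library, lines joining the libraries of a treatment and a star for day 0. The B and BC lines lie above BM and C for Timp1 and below them for Timp2 and Timp3; for Timp3 the highest bFGF library is at 153 FPKM and the lowest library without bFGF at 159 FPKM.

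The make-up of the TIMP messages differed accordingly between libraries with and without bFGF. Timp1 was 39.8% of the summed TIMP FPKM on day 0. It was between 2.82% (C day 3) and 13.3% (BM day 1) without bFGF, and between 15.0% (BC day 3) and 38.9% (B day 7) with it. Timp3 made up 42.3% to 67.4% without bFGF and 21.9% to 42.8% with it. On day 0 the shares of Timp1 and Timp3 were therefore closer to those of the libraries with bFGF. The Timp2 share was 26.7% on day 0, below that of every later library, the lowest being C day 3 (29.8%). The sum of the 5 MMPs over the sum of the 3 TIMPs was 0.239 on day 0 and 0.322 to 0.715 later. The 4 highest of these ratios were BC day 3 (0.715), BC day 5 (0.705), B day 3 (0.596) and BM day 7 (0.498). The ratio stayed below 1 in every library, which means that inhibitor messages outnumbered those of the 5 proteases per length. Ratios with bFGF (0.381 to 0.715) and without it (0.322 to 0.498) overlapped. A ratio of messages says nothing of enzyme activity, which was not measured.

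**Figure D2:**
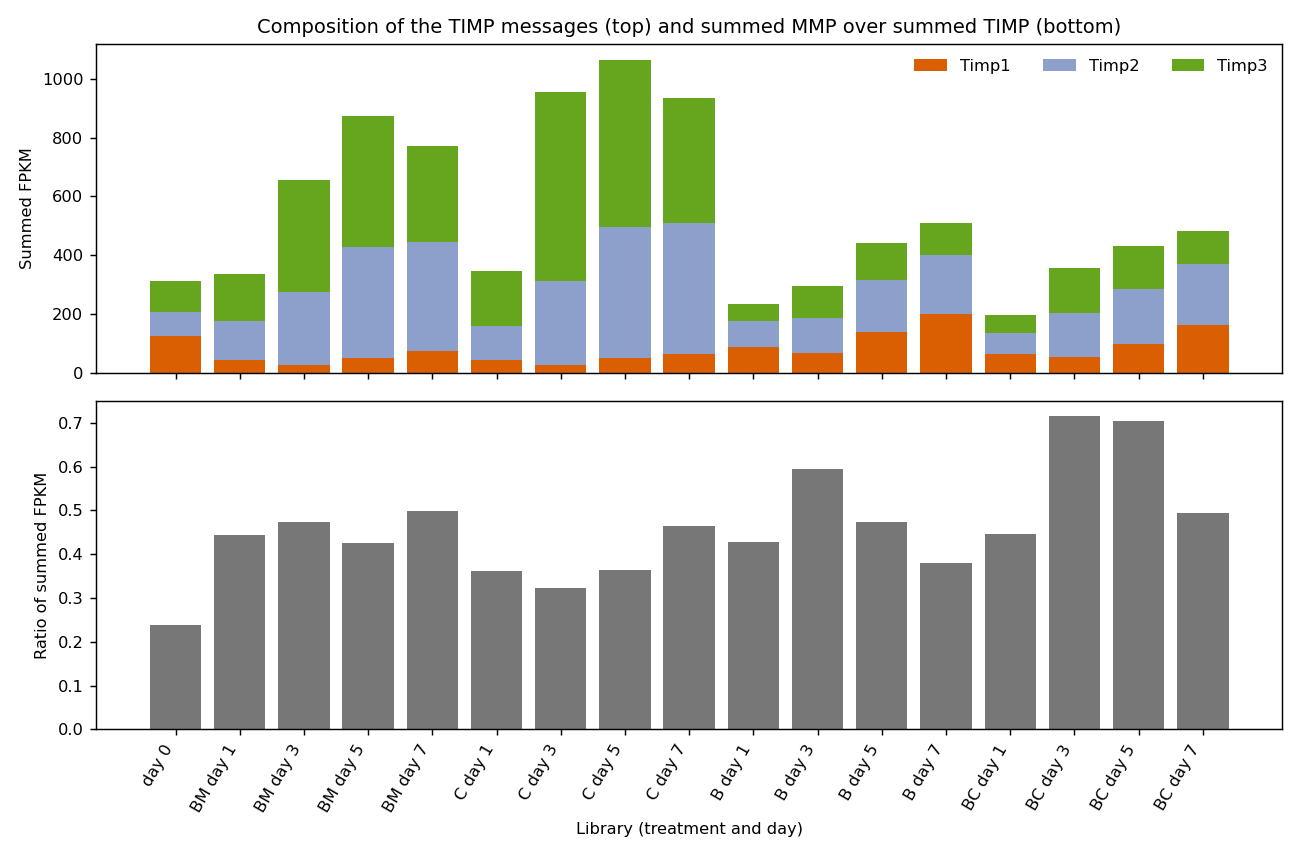
Top, stacked FPKM of Timp1, Timp2 and Timp3 in each of the 17 libraries; bottom, summed FPKM of the 5 MMPs divided by that of the 3 TIMPs. The Timp1 part is 2.82% to 13.3% of the stack in BM and C and 15.0% to 38.9% in B and BC, and the ratio stays between 0.239 and 0.715.

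Mmp2 and Mmp14, the gelatinase and its membrane-bound activator, carried 96.1% to 99.6% of the summed MMP FPKM. Mmp14 was at 59.6 FPKM on day 0. It was 111, 147, 185 and 196 FPKM in BM on days 1, 3, 5 and 7 and 98.1, 141, 191 and 207 FPKM in C. In B it was 75.3, 87.3, 94.6 and 88.8 FPKM and in BC 67.0, 112, 114 and 104 FPKM. All 8 pairs were lower with bFGF. After TMM scaling the effect was similar in size on each day: -0.47, -0.44, -0.41 and -0.52 (log2, each ± 0.13 SE) on days 1, 3, 5 and 7. In FPKM the decrease was larger late: B was 1.469-fold under BM on day 1 and 2.21-fold on day 7. BC was 1.465-fold under C on day 1 and 2-fold on day 7. Over days 1 to 7 it was -0.46 ± 0.08, 1.38-fold lower, with an adjusted p of 0.000575 in edgeR's quasi-likelihood test. A difference between days was not called in the TMM-scaled fit (adjusted p = 0.938), so whether the effect was even over days depends on the scaling.

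Mmp2 rose more with time than it differed by treatment. It was 14.0 FPKM on day 0, then 37.6, 162, 175 and 174 FPKM in BM, 26.0, 167, 189.9 and 209 FPKM in C, 23.5, 86.4, 114 and 105 FPKM in B, and 19.6, 141, 189.4 and 132 FPKM in BC. Every library with bFGF was below its partner in FPKM, though BC and C on day 5 differed by 1.003-fold, and B was the lowest of the 4 treatments on days 3, 5 and 7. After TMM scaling the effect was -0.23 ± 0.15 (SE, log2) with an adjusted p of 0.173. With library totals as the only scaling it was -0.52 with an adjusted p of 0.00406, and without BC day 5 it was -0.32 with an adjusted p of 0.0486, so whether Mmp2 counts as lower depends on the scaling and on that library.

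Mmp13, which cleaves fibrillar collagens, had the largest bFGF effect of the 8 genes. It was at 0.34 FPKM on day 0. In BM it climbed from 0.67 through 2.93 and 10.3 to 13.3 FPKM on days 1, 3, 5 and 7, and in C from 0.40 through 0.94 and 5.27 to 12.01 FPKM. In B it went from 0.63 through 0.49 and 0.21 to 0.14 FPKM and in BC from 0.45 through 0.74 and 0.32 to 0.31 FPKM. The 4 libraries of day 1 were alike, and by days 5 and 7 the libraries without bFGF lay far above those with it. These values rest on 650 and 596 expected counts in BM and C on day 7 and on 7 and 15 in B and BC, so the size of the fold is uncertain. The effect of bFGF went from 0.11 ± 0.55 (SE, log2) on day 1, which was not called, to -1.47 ± 0.46 on day 3, -4.37 ± 0.48 on day 5 and -5.26 ± 0.49 on day 7 (adjusted p = 0.924, 0.0179, 4.46e-06 and 8.04e-07 in edgeR's quasi-likelihood test). The difference between days was called (-5.37 for day 7 minus day 1, adjusted p = 0.000153). As Mmp13 passed the filter only through the libraries without bFGF, these calls are a description. The effect over days 1 to 7 was -2.71 ± 0.71 with an adjusted p of 0.00511, an average over days that differ.

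Its neighbours Mmp3 and Mmp10, stromelysins that cleave proteoglycans, laminin and other MMP zymogens, had few reads. Their expected counts were fractions in 12 of 17 libraries and added up to whole numbers, as happens when reads that fit both genes are shared between them, so the split between these 2 genes is uncertain. Summed over the pair, counts ran from 6 in BM day 3 to 150 in C day 7. Mmp3 was 0.20 FPKM on day 0, then 0.21, 0.14, 1.06 and 1.40 in BM and 0.06, 0.28, 1.77 and 2.77 FPKM in C. With bFGF it was 0.25, 0.60, 0.34 and 0.21 FPKM in B and 0.27, 0.91, 1.48 and 0.73 FPKM in BC. It was higher with bFGF on day 3 and lower on day 7.

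Mmp10 was 0.39 FPKM on day 0. It was 0.12, 0.05, 0.10 and 0.29 FPKM in BM and 0.15, 0.06, 0.38 and 1.82 FPKM in C, so the C day 7 library was the highest of all 17. With bFGF it was 0.39, 0.99, 0.43 and 0.51 FPKM in B and 0.49, 0.84, 0.17 and 0.76 FPKM in BC. In a fit of all 18700 genes with no filter, both stromelysins were called higher with bFGF on day 3, Mmp3 by 2.02 ± 0.56 (SE, log2; adjusted p = 0.00932) and Mmp10 by 3.87 ± 0.85 (adjusted p = 0.00161), beside 31.7% of all genes. On day 7 Mmp3 was lower by -1.65 ± 0.45 (adjusted p = 0.0042, 53.0% of genes called), and Mmp10 was at -0.07 ± 0.59 with an adjusted p of 1. The bFGF effect differed between days for Mmp3 (adjusted p = 0.002) and for Mmp10 (adjusted p = 0.0284), as it did for 48.6% of genes in that fit. Over days 1 to 7, Mmp10 was higher by 1.39 ± 0.53 (adjusted p = 0.0416, 46.5% of genes called) and Mmp3 did not pass (0.05 ± 0.46, adjusted p = 0.938). On day 3 the low values of Mmp10 without bFGF rested on 1.52 and 2 expected counts, so its fold there carries a large counting error.

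**Figure D3:**
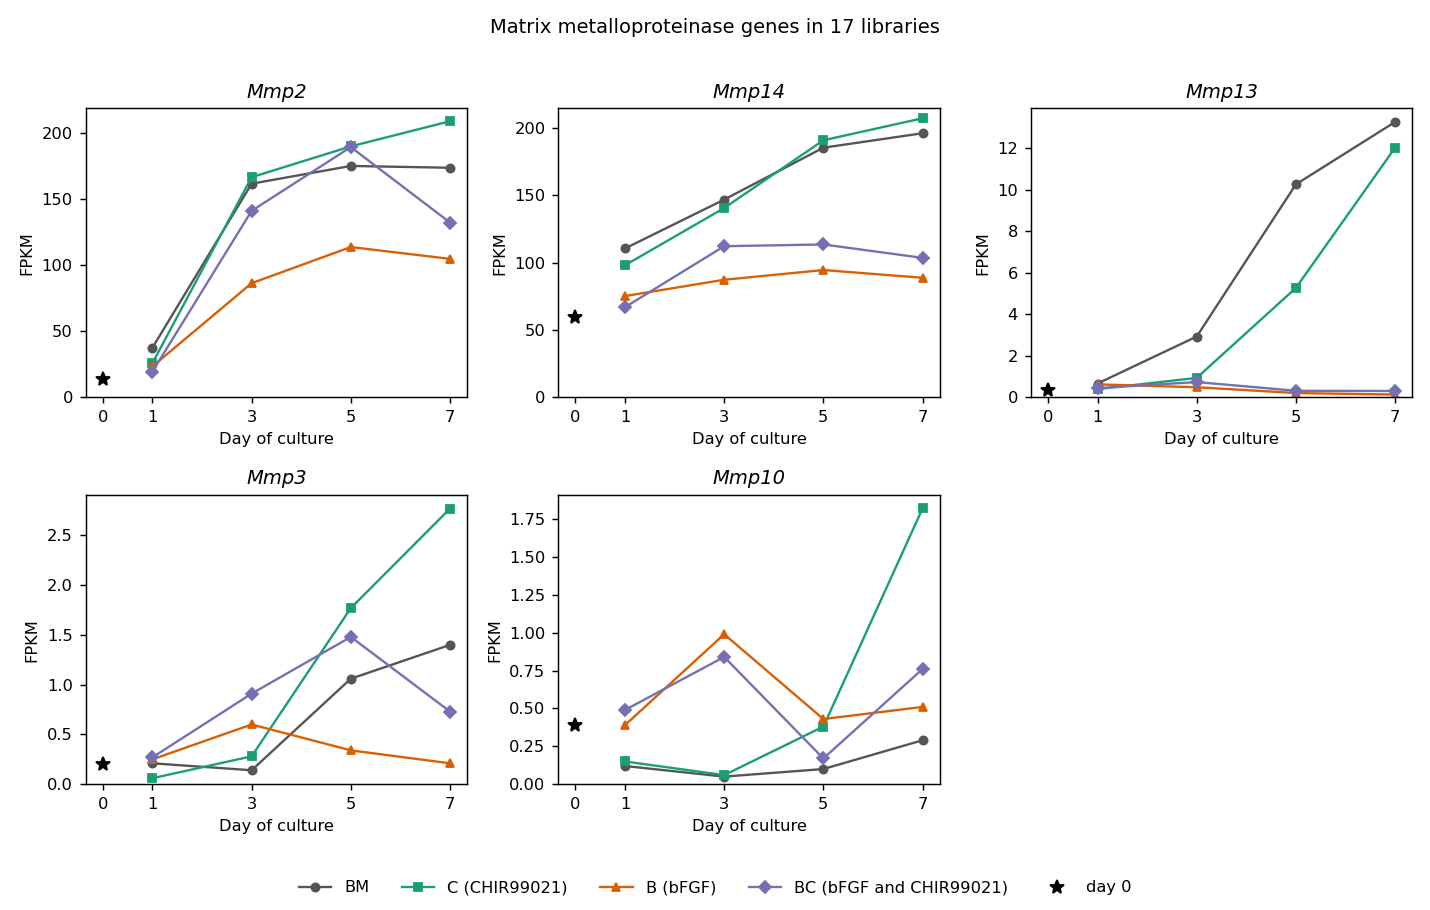
FPKM (vertical axis, from 0, scaled per panel) of 5 MMP genes by day of culture, 1 point per library, lines joining the libraries of a treatment and a star for day 0. Mmp2 and Mmp14 are higher on day 7 than on day 1 in each treatment, Mmp13 climbs in BM and C to 13.3 and 12.01 FPKM and stays at or below 0.74 FPKM in B and BC, and Mmp3 and Mmp10 remain at or below 2.77 FPKM.

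The plasminogen activators had bFGF effects of opposite sign over days 1 to 7 in the TMM-scaled fit, and both missed the threshold in the exact sign-flip test over 8 pairs (adjusted p = 0.0817 for each). Plau, the urokinase that acts at the cell surface through the receptor Plaur, was 5.51 FPKM on day 0. It was 4.90, 1.72, 6.28 and 24.9 FPKM in BM and 3.56, 1.83, 7.33 and 18.8 FPKM in C, a dip on day 3 followed by a climb. In B it was 3.36, 2.06, 0.99 and 2.83 FPKM and in BC 2.96, 2.63, 1.5 and 2.84 FPKM, with no such climb. The pairs of day 3 were higher with bFGF and the other 6 were lower. The effect of bFGF was -0.35 ± 0.22 (SE, log2) on day 1 and 0.50 ± 0.25 on day 3, neither of which was called, then -1.99 ± 0.24 on day 5 and -2.42 ± 0.21 on day 7 (adjusted p = 0.334, 0.11, 9.1e-06 and 5.14e-07 in edgeR's quasi-likelihood test). The difference between days was called (-2.07 for day 7 minus day 1, adjusted p = 2.26e-05). Over days 1 to 7 the effect was -1.09 ± 0.37 with an adjusted p of 0.0193, and it missed the threshold when B day 5, BC day 7 or B day 7 was left out (adjusted p = 0.0505, 0.053 and 0.0561).

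Plat, the activator best known from neurons and vessel walls, changed mostly with time. It was 26.8 FPKM on day 0. It was 20.02, 32.4, 47.9 and 65.3 FPKM in BM, 19.3, 38.7, 65.9 and 80.8 FPKM in C, 25.9, 43.0, 55.1 and 69.4 FPKM in B, and 31.2, 38.1, 66.8 and 78.6 FPKM in BC. On day 7 the 4 treatments lay between 65.3 and 80.8 FPKM, and the libraries with bFGF lay between those without it. The bFGF effect was 0.51 ± 0.08 (SE, log2) over days 1 to 7 with an adjusted p of 0.000338, against 0.22 with an adjusted p of 0.0413 with library totals as the only scaling. It was 0.57 ± 0.13 on day 7 with an adjusted p of 0.00179. With library totals the day 7 effect was 0.03 with an adjusted p of 0.841, so the higher level of Plat on that day is relative to the bulk of genes and is not visible in FPKM. Plau made up 4.52% to 27.6% of the summed FPKM of both activators without bFGF and 1.76% to 11.5% with it.

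**Figure D4:**
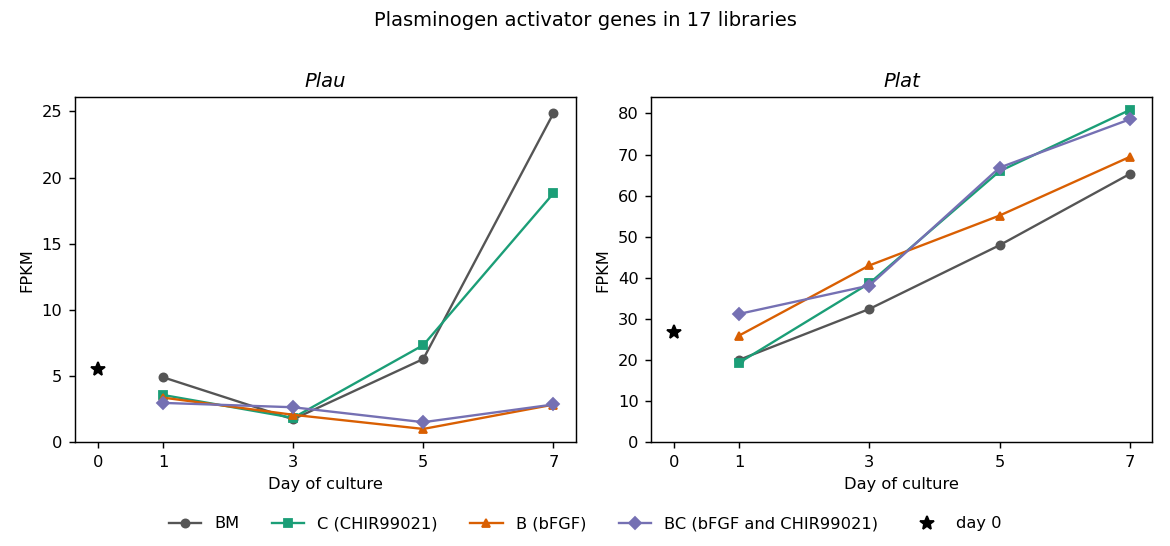
FPKM (vertical axis, from 0, scaled per panel) of Plau and Plat by day of culture, 1 point per library, lines joining the libraries of a treatment and a star for day 0. Plau reaches 24.9 FPKM in BM and 18.8 in C on day 7 and stays at or below 3.36 in B and BC, and Plat ends between 65.3 and 80.8 FPKM in the 4 treatments.

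By day, bFGF changed 5 of the 8 genes on day 1, 5 on day 3, 7 on day 5 and 7 on day 7, beside 10.7%, 50.4%, 75.8% and 78.4% of all genes tested. The 5 of day 1 were Timp1, Timp2, Timp3, Mmp14 and Plat. These calls need the whole set of libraries: of the 5, the count called fell to 1 without BM day 1, 2 without BC day 1, 2 without B day 1 and 4 without C day 1. Mmp13 and Plau, with the largest effects on day 7, were not called on day 1. On day 3 the count was 3 without BM day 3 or without B day 3, and 7 without BC day 3. Plat was not called on day 3 (0.30 ± 0.13, adjusted p = 0.0799), and Mmp13 was.

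**Figure D5:**
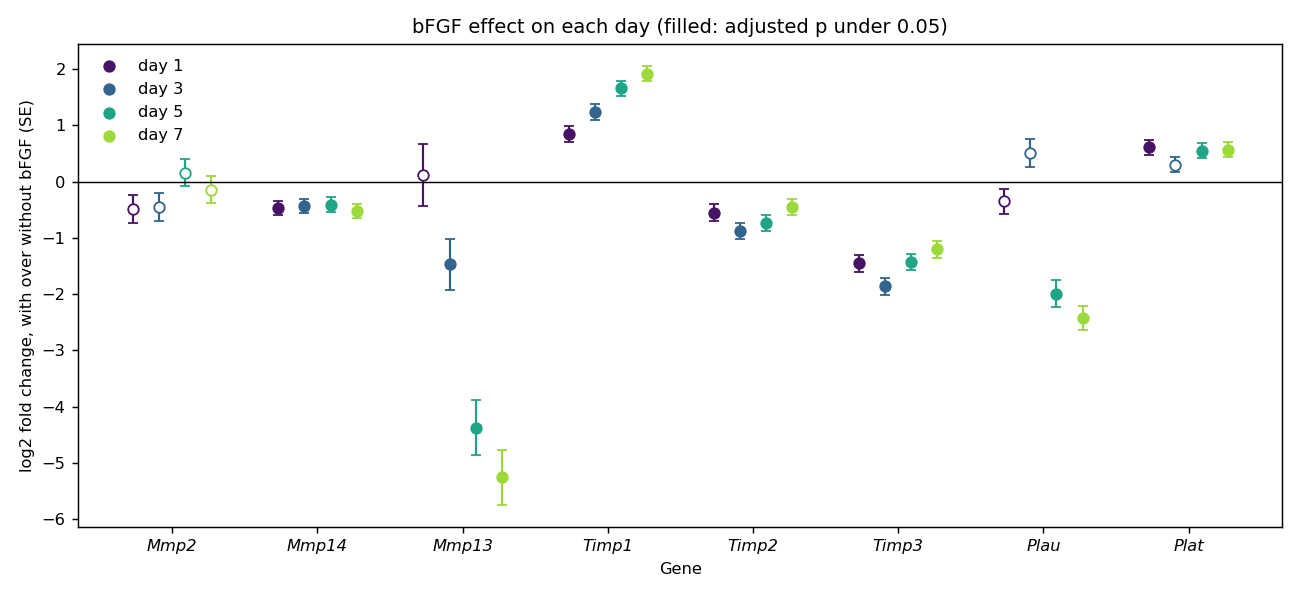
Log2 fold change of libraries with over libraries without bFGF on each day (vertical axis) for the 8 genes that passed the filter (horizontal axis), with SE bars; filled points had an adjusted p under 0.05 in edgeR's quasi-likelihood test. Timp3 and Mmp14 are below 0 on each day, Timp1 goes from 0.84 on day 1 to 1.92 on day 7, and Mmp13 and Plau go down to -5.26 and -2.42 on day 7.

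From day 1 to day 7 without bFGF, the 8 genes rose, beside 63.8% of all genes called, 32.3% higher and 31.5% lower. Mmp13 passed the filter only through its late values without bFGF, so its rise and its rank here are a description. The increase was largest in Mmp13 (4.57 ± 0.43, SE, log2), followed by Mmp2 (2.54 ± 0.26), Plau (2.34 ± 0.21), Plat (1.86 ± 0.14), Timp2 (1.68 ± 0.15), Timp3 (1.10 ± 0.15), Mmp14 (0.92 ± 0.13) and Timp1 (0.62 ± 0.14, adjusted p = 0.00191). With bFGF 6 of them rose, beside 75.3% of genes called, 35.8% higher and 39.5% lower. Mmp2 (2.88 ± 0.26), Plat (1.82 ± 0.14) and Timp2 (1.79 ± 0.15) rose here as well, and Timp1 rose by 1.69 ± 0.14. Mmp13 (-0.80 ± 0.65, adjusted p = 0.282) and Plau (0.27 ± 0.23, adjusted p = 0.292) did not pass the test. In the fit with no filter, Mmp3 (3.74 ± 0.55, adjusted p = 1.74e-05) and Mmp10 (2.66 ± 0.73, adjusted p = 0.00618) also rose without bFGF, where 41.6% of genes were called.

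CHIR99021 changed 0 of the 8 genes in edgeR's quasi-likelihood test, beside 0.337% of all genes. Timp3 and Plat had an unadjusted p under 0.05 (0.0146 and 0.0259), at 0.32 ± 0.12 (SE, log2, adjusted p = 0.309) and 0.20 ± 0.08 (adjusted p = 0.406), and DESeq2 likewise called 0 of the 8. Timp3 was higher with CHIR99021 in 7 of 8 pairs. The remaining effects lay between -0.34 ± 0.62 for Mmp13 and 0.19 ± 0.15 for Mmp2. With errors of 0.08 to 0.62, small shifts could not be told from none at this precision. An interaction of bFGF with CHIR99021 was called for 0 of the 8 genes, with 0 at an unadjusted p under 0.05, beside 0.00887% of all genes.

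The rest of the pathway was read from 3 lists of related genes. Of 22 other MMP genes and MMP regulators, 10 could be tested, of which bFGF raised 4 and lowered 6 (median -0.51 on the log2 scale). Of all genes tested, 68.4% were called for bFGF over days 1 to 7, 34.6% higher and 33.9% lower. Mmp9, which encodes gelatinase B, rose by 1.22 ± 0.24 and reached 3.59 FPKM in BC day 3. On day 7 it was 1.63 FPKM in B and 2.05 in BM, and 2.89 in BC and 1.86 in C. Bsg, the MMP inducer basigin, rose by 0.95 ± 0.25, with 297 to 807 FPKM without bFGF and up to 1958 FPKM in BC day 7. On day 1 it was 287 FPKM in B and 297 in BM, and 316 in BC and 324 in C. Mmp19 was higher by 0.61 ± 0.17 over days 1 to 7, with 4.25 FPKM in B and 1.86 in BM, and 5.66 in BC and 2.04 in C, on day 3. By day 7 it was lower in FPKM, at 2.53 in B and 2.92 in BM, and 2.37 in BC and 3.96 in C. Mmp28 (-1.38 ± 0.25) and the membrane-type gene Mmp16 (-1.11 ± 0.23) were lower. Mmp12, the macrophage elastase, was at or below 0.09 FPKM in each library with bFGF and 0 in 6 of those 8, and it climbed without bFGF to 2.04 FPKM in BM day 7 and 18.6 FPKM in C day 7.

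In the plasminogen system, 7 of 13 genes were tested, of which 3 rose, 3 fell and 1 was not called (median 0.02). Among all genes tested, 68.4% were called. Over days 1 to 7 the urokinase receptor Plaur moved opposite to its ligand Plau. Plaur was higher with bFGF by 2.13 ± 0.26 (SE, log2, adjusted p = 7.51e-05 in edgeR's quasi-likelihood test), at 4.53 to 16.5 FPKM without and 9.42 to 41.1 FPKM with bFGF. On day 3, however, both genes were higher with bFGF in each pair. In B and BM, Plau was then 2.06 and 1.72 FPKM and Plaur 18.5 and 4.87 FPKM. S100a10 (1.15 ± 0.20) and Anxa2 (0.81 ± 0.16), which together form a plasminogen receptor, were higher too. The clearance receptor Lrp1 (-0.51 ± 0.13) and the plasminogen receptor Plgrkt (-0.50 ± 0.10) were lower.

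Of 31 ADAM and ADAMTS genes, adamalysins that shed membrane proteins or cut proteoglycans, 17 were tested, of which 6 rose, 8 fell and 3 were not called (median 0.07). The share called among all genes tested was 68.4%. Adam8 rose by 3.35 ± 0.50 (SE, log2), from at most 5.98 FPKM without bFGF to as much as 50.3 FPKM in BC day 7. Adamts14 (2.49 ± 0.26), which trims procollagen, and Adam9 (0.79 ± 0.13) rose. The aggrecanase Adamts5 fell by 2.18 ± 0.43, from 28.6 FPKM in BM day 7 to 0.72 in B day 7. Adamts15 (-4.24 ± 0.46) and Adamts8 (-5.72 ± 0.77) fell to at most 0.36 and 0.06 FPKM. Like Mmp13, both of these and Mmp12 passed the filter only through the libraries without bFGF, so their calls and folds are a description. CHIR99021 changed 0 of the tested genes of these 3 lists.

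The genes whose log2(FPKM + 1) followed the members most closely over the 17 libraries, out of 11258 genes averaging 1 FPKM or more, were the following. These correlations are a description, since the libraries share days and treatments. For Mmp13 they were Fmod, the small proteoglycan fibromodulin (r = 0.983), Col27a1, a fibrillar collagen (0.980), and Elfn1 (0.979). For Timp3 they were the tendon transcription factor Scx (0.974), H3f3a (0.962), a histone gene whose reads can be confused with near-identical copies, and Tax1bp3 (0.954). For Timp1 they were the growth cone gene Gap43 (0.945), Anxa2 (0.942) and the proteasome maturation gene Pomp (0.908). For Plau they included Cdh15 (0.890) and Foxs1 (0.854). Between the members, Mmp14 and Timp2 were most alike (r = 0.943), while Timp1 and Timp3 had the most negative value (-0.605).

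Markers of several cell types moved along with several of these genes. The 8 markers of pericytes or fibroblasts summed to 175 FPKM on day 0, to 223 to 522 FPKM without bFGF and to 68.2 to 169.8 FPKM with it, which is the direction of Timp3, Timp2, Mmp14 and the late Mmp13 and Plau. Col3a1 made up most of that sum and Pdgfrb reached 115 FPKM in BM day 7. Col1a1 reached 25.9 FPKM in BM and 45.2 in C on day 7 and at most 1.53 with bFGF, Dcn reached 9.61 without and 1.71 with bFGF, and Pdgfra 5.27 without and 4.36 with bFGF. Rgs5, Cspg4 and Lum were at or below 0.10 FPKM in every library. The 7 markers of microglia or macrophages summed to 2.15 to 5.75 FPKM without bFGF and 2.25 to 81.1 FPKM with it, mostly from the lysosomal gene Cd68. Cx3cr1 reached 2.25 FPKM in BC day 7 and 1.03 in B day 7, against at most 0.10 without bFGF. Tmem119 had the opposite direction on day 7: BM reached 1.79 and C 1.87 FPKM, while B held 0.03 and BC 0.08 FPKM. On day 3 its BC library stood at 1.58 FPKM, above the 0.60 FPKM of C. Csf1r peaked at 0.38 FPKM, its BM day 7 value, and P2ry12, Aif1 and Ptprc were at or below 0.16 FPKM in every library. The 7 progenitor markers summed to 139 to 353 FPKM without bFGF and 75.7 to 202 FPKM with it, and Pax6 was 165 FPKM in BM day 7 and 10.7 in B day 7. The 5 Müller glia markers summed to 15.98 to 191 FPKM without bFGF and 20.8 to 81.6 FPKM with it, mostly from Apoe and Glul. Rlbp1 and Slc1a3 were at or below 0.13 FPKM. Apoe and Glul did not move together. On day 7 Apoe was 50.3 FPKM in B and 104 in BM, and 65.8 in BC and 173 in C. Glul was then 23.3 FPKM in B and 12.4 in BM, and 15.8 in BC and 16.9 in C. Glul was higher with bFGF in every pair except BC and C on days 5 and 7. The part of such cells in the results was not tested, and in these bulk libraries fewer cells of a type and less RNA per cell cannot be told apart. Endothelial, astrocyte, photoreceptor and pigment epithelium markers summed to at most 1.41 FPKM in each library.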

How the data were processed

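RNA for 17 libraries was poly-A selected and sequenced on the BGISEQ-500 platform, and the authors mapped reads with Bowtie 2. The deposited tables give an expected count and an FPKM value per gene, listing genes from 0.01 FPKM. The study's methods name eXpress as quantifier, the submitters' processing notes name RSEM and the build mm10. Versions were not given in the sources used here, nor strand. A gene not listed was taken as 0. The members and the gene lists were chosen with earlier results of these data known. Expected counts were rounded and tested with edgeR 4.0.16 (limma 3.58.1, R 4.3.3) over 11272 genes. Each of 3 models was fitted to the 16 libraries of days 1 to 7: day, bFGF and CHIR99021 (10 residual degrees of freedom); the same with bFGF by day (7); and the same with bFGF by CHIR99021 (9). Day 0 stayed out. The fits were also run on simulated data in which few genes changed, by bFGF only. No CHIR99021 effect and no other change with day was set, so that run does not measure error rates in these data. Named genes are the 10 members, the 3 genes per list and direction with the largest called bFGF effect, and the 3 genes most correlated with each of the 4 members of largest effect. Some genes that this rule or the marker lists name are not reported here. Where a value beyond these is given it was chosen after its values were seen. Alternatives were DESeq2 1.42.0, library totals as scaling, limma on log2(FPKM + 1) and log2(FPKM + 0.1), no filter, a mean FPKM of at least 5, each library left out, day 1 left out, and an exact sign-flip test over 8 pairs, whose smallest p is 0.00781. Total counts of 17571973 to 19428744 per library set the counting error, and intervals were not computed.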

Additional observations from a re-analysis of the deposited data

Results flagged for a closer look

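The effect of bFGF differed between days for 3 of the 8 genes that passed the filter, by edgeR's quasi-likelihood test of all days together. For Mmp13 the log2 fold change on day 7 minus that on day 1 was -5.37 (adjusted p = 0.000153), for Plau it was -2.07 (adjusted p = 2.26e-05) and for Timp1 it was 1.08 (adjusted p = 0.00143). A difference of this kind was called for 76.3% of all genes tested. Of the 8 genes, 4 were called in DESeq2, with library totals as scaling and in limma with either pseudocount. At a mean FPKM of at least 5, which Mmp13 did not reach, 2 were called. In the fit with no filter Timp3 was called as well (adjusted p = 0.0456). The count of 3 thus depends on the processing. Mmp13 passed the filter only through the libraries without bFGF, so its value is a description. No group held 4 or more libraries of 1 condition, so single libraries were not tested for standing apart.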

How the results depend on the processing

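Across 23 or 24 alternatives each, the bFGF effects over days 1 to 7 of Mmp13, Mmp14, Timp1, Timp2 and Timp3 kept direction and call. For Mmp13, which passed the filter only through the libraries without bFGF, this is a description. With totals as scaling the median gene moved to -0.29 (log2) and the genes called for bFGF split into 2245 higher and 5702 lower, against 3896 and 3817. In limma on log2(FPKM + 1) Mmp2 was called (-0.52, adjusted p = 0.00253) and Plat on day 7 was not (0.02, adjusted p = 0.867); the exact sign-flip test missed Plau and Plat (adjusted p = 0.0817 for each) and called Mmp2 (0.0213). Timp2 on day 7 missed the threshold without B day 7 (0.066) or C day 7 (0.0934). Plau changed sign in 2 comparisons never called. Its CHIR99021 effect (0.004) was -0.0031 with no filter, -0.0081 in limma with pseudocount 1 and in the sign-flip test, and -0.2029 to 0.225 with 1 library left out. Its change from day 1 to day 7 with bFGF was -0.16 with totals and -0.12 and -0.15 in limma with pseudocounts 1 and 0.1. Of all genes, CHIR99021 changed 38, against 281 in DESeq2, 22 with no filter, 24 without day 1, 0 in the sign-flip test (3577 at an unadjusted p under 0.05) and 1 to 28 with 1 library left out. For bFGF on day 1 the 1203 genes became 145 to 1784 with 1 library left out, the lowest without BC day 1 (145), BM day 1 (200), B day 1 (360) and C day 1 (380), and on day 3 the 5680 became 2520 from that day's 4 libraries alone. The interaction of bFGF and CHIR99021 called 1 gene, 5 in DESeq2, 2 without day 1, 0 with totals or limma (147 at an unadjusted p under 0.05) and 0 to 1 with 1 library left out. The causes were not tested. With 1 library per condition, a difference between cultures cannot be told apart from a treatment effect in any single library. Libraries were matched by day, in the sign-flip test and as a term of each fit, and by no replicate number.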
